A study of Mus musculus with 6 samples.

Results

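The genes described here make, break down and read out the cyclic nucleotides cAMP and cGMP. They are the adenylyl cyclases (Adcy), the guanylyl cyclases (Gucy), the phosphodiesterases (Pde), and the subunits of the cAMP-dependent protein kinase A and the cGMP-dependent protein kinase G (Prk). They were taken as all probe sets whose platform annotation names exactly 1 gene with such a symbol, which gave 111 of the 45101 probe sets of the array, for 45 genes. The rule used symbols alone and no measured value, but the members were chosen with earlier results of these data known. All 111 probe sets had a signal. By role, 22 probe sets measured 10 adenylyl cyclases, 10 measured 6 guanylyl cyclases, 54 measured 21 phosphodiesterases and 25 measured 8 kinase subunits.

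Expression was measured on 3 arrays of dorsal root ganglia (DRG), where sensory neurons have their cell bodies among satellite and Schwann cells, and on 3 arrays of spinal cord (SC). DRG arrays carried total RNA from lumbar ganglia and SC arrays total RNA from lumbar cord, left and right sides pooled. All mice were male C57BL/6J aged 3 months, a strain that the design text writes as C57B/6, and no genotype or treatment is labelled for either tissue. Each array stands for a pool of 4 mice, so the spread between mice was not measured, and the 3 pools of a tissue are described as independent. RNA came from whole tissue, so fewer cells of a type and less RNA per cell cannot be told apart.

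Adenylyl cyclases make cAMP when G-protein coupled receptors signal through a stimulating G protein, and some isoforms also answer to calcium. Guanylyl cyclases make cGMP, the soluble heterodimer in response to nitric oxide and the membrane forms mostly in response to peptides. Phosphodiesterases hydrolyse one or both messengers. cAMP frees the catalytic subunits of protein kinase A from their regulatory subunits, and in sensory neurons this pathway is known for sensitising nociceptors, while cGMP acts through protein kinase G, which is needed for the branching of sensory axons in the embryonic mouse cord.

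Across all probe sets, 2 DRG arrays correlated at 0.966 to 0.970 (Pearson, log2 signals), 2 SC arrays at 0.966 to 0.969, and a DRG with an SC array at 0.891 to 0.898. Of the marker genes, 7 of 7 for sensory neurons and 5 of 5 for Schwann and satellite cells were higher in DRG. Those higher in SC were 6 of 6 spinal neuron, 6 of 6 astrocyte and 5 of 5 oligodendrocyte markers. The marker lists were chosen with earlier results of these data known, so these counts are not an independent check of the labels. The summed signal of the sensory neuron markers was 29714 to 30909 on the DRG arrays and 584 to 715 on the SC arrays, and that of the astrocyte markers was 999 to 1038 on the DRG arrays and 19881 to 22082 on the SC arrays. Fibroblast and matrix markers were higher in DRG for 5 of 6 genes and microglia and macrophage markers higher in SC for 3 of 5. Of the 5 microglia and macrophage markers, 3 were at or under the level for dim signals, given below, on every array. Skeletal muscle markers were called for 0 of 5, with sums of 404 to 1547 on the DRG arrays and 430 to 1766 on the SC arrays. The part of these cell types in the results was not tested.

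A call means an adjusted p under 0.05 in limma's test of log2(signal + 16) across all 45027 tested probe sets, and differences are DRG minus SC. The probe set with the highest mean stands for its gene unless stated otherwise. A level for genes not expected in either tissue, 118 to 182 on the DRG arrays and 121 to 192 on the SC arrays, was used to mark dim signals, and a signal at or under it is not taken as evidence of expression. A fold is the ratio of the geometric mean signals of the tissues, and it is given as a lower bound where the dimmer tissue was at or under the level on its 3 arrays.

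Of the 45 genes, 21 were called, against 41.5% of all 18189 genes. The calls were 10 toward DRG (22.2%) and 11 toward SC (24.4%), against 31.8% and 9.69% of all genes. Differences of log2(signal + 16) of at least 1 in size were called for 6 genes toward DRG and 7 toward SC, against 11.5% and 4.76% of all genes. On the deposited scaling the called kinase subunits and the called cyclases lay on opposite sides. Of 8 kinase subunits 6 were called toward DRG and 0 toward SC, while of 16 cyclases with an Adcy or Gucy symbol 0 were called toward DRG and 6 toward SC. All 8 kinase subunits were above the level on all 3 arrays of at least one tissue. Bright probe sets were called more often: of those above the median signal, 40.4% were called toward DRG and 13.7% toward SC. The phosphodiesterases divided, with 4 of 21 called toward DRG and 5 toward SC. The largest differences were those of Prkar2b and Prkg1 toward DRG and of Pde1b toward SC, followed by Pde1c toward DRG and Pde9a toward SC.

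Over probe sets, 27 of 111 were called toward DRG and 21 toward SC, against 22.7% and 9.78% of all probe sets. The 3 DRG arrays lay above the 3 SC arrays for 32 probe sets and below them for 27, against 28.4% and 15.1% of all. By genes, arrays lay apart in this way for 13 toward DRG and 13 toward SC, against 37.9% and 13.8% of all genes. The median difference of the 45 genes was 0.03, and that of all genes was 0.18. Of the 45 genes, 12 were at or under the level of genes not expected on every array, and 31 were above it on all 3 arrays of at least one tissue. On the deposited scaling no gene of the 45 had probe sets called in opposite directions, while before the array scaling Pde2a and Prkar1b did.

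**Figure D1:**
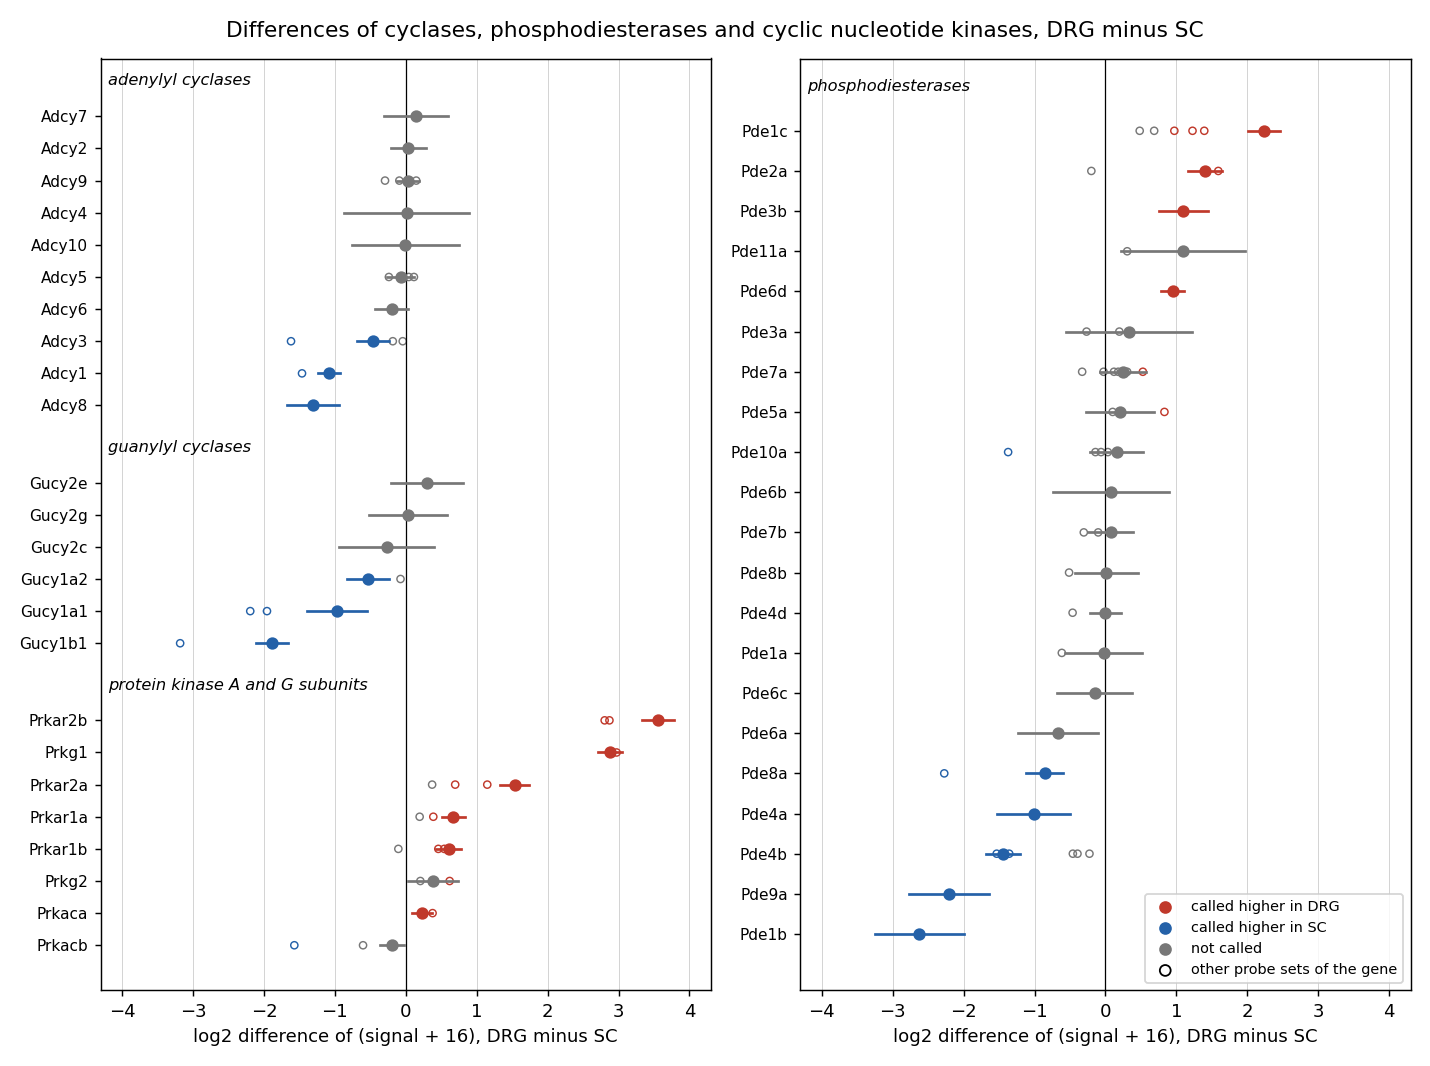
Log2 difference of (signal + 16), DRG minus SC, for the 45 genes by role. Filled points are each gene's brightest probe set with its 95% interval, open circles its other probe sets, and colours the limma call. Kinase subunits lie mostly to the right of 0, from -0.20 for Prkacb to 3.55 for Prkar2b, and the called cyclases all lie to the left, down to -1.88 for Gucy1b1.

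The direction of small differences depended on how the arrays were scaled. The deposited array scaling put the median of all probe sets 0.08 higher in DRG, and that of probe sets above the median signal 0.24 higher. After quantile normalization these medians were 0.01 and 0.00, and with signals before the array scaling they were -0.18 and -0.11. Signals before the array scaling were not unscaled, since their trimmed mean was already 247.3 to 247.5 on every array. The deposited array scaling is a further division by an array factor, 84.5 to 89.5 for DRG and 110.5 to 112.6 for SC. The 3 settings thus compare ways of scaling, and none uses raw signals. The counts of called genes were 10 toward DRG and 11 toward SC on the deposited scaling, 7 and 18 under quantile normalization, and 9 and 18 before the array scaling. Of all genes, 20.5% were called toward DRG and 16% toward SC after quantile normalization, and 19.3% and 19.7% before the array scaling. Call and direction held under both other scalings for 18 of the 21 called genes. They were all 11 called toward SC and 7 of the 10 called toward DRG, with all 13 that had a log2 difference of at least 1 in size. Both other scalings moved the medians toward SC, so the calls toward SC were hardly put to a test here. By role, the kinase subunits counted 3 toward DRG and 2 toward SC under quantile normalization, and 5 and 1 before the array scaling, while the guanylyl cyclases counted 0 and 3 under each. The 3 exceptions to the 18 were the kinase subunits Prkar1a, Prkar1b and Prkaca. A further 6 genes were called toward SC under both other scalings and not on the deposited one, namely Adcy2, Adcy5, Adcy6, Adcy9, Pde4d and Prkacb.

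**Figure D2:**
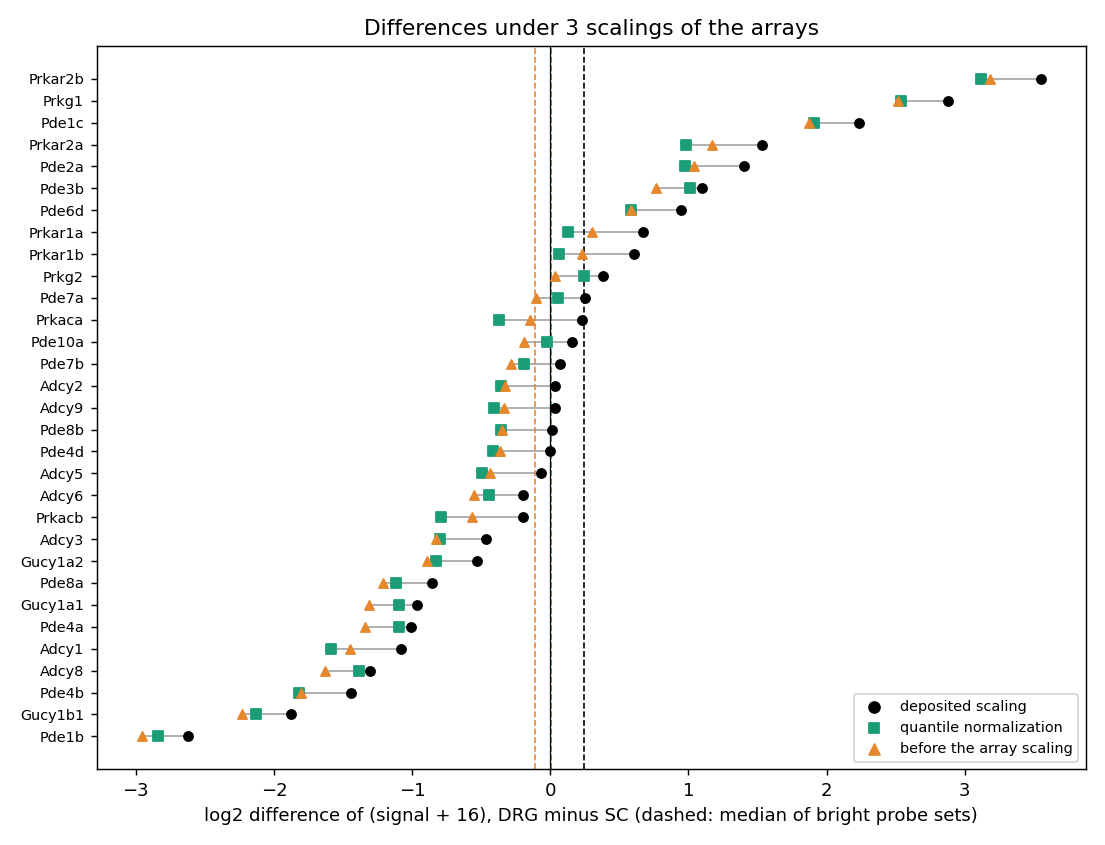
Log2 difference of (signal + 16), DRG minus SC, under 3 array scalings, for the 31 genes that exceeded the level for genes not expected on all 3 arrays of at least one tissue. Dashed lines mark the median of probe sets above the median signal under each scaling, at 0.24, 0.00 and -0.11. Genes from Prkar2b to Pde6d stay to the right of 0 and genes from Adcy3 to Pde1b to the left under every scaling shown, while Prkaca, Pde7a, Pde7b, Pde8b, Pde10a, Adcy2 and Adcy9 change side.

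Among the adenylyl cyclases, Adcy8, Adcy1 and Adcy3 were called higher in SC, and none was called higher in DRG. Adcy1 and Adcy8 are stimulated by calcium and calmodulin. Adcy1 had signals of 794, 741 and 776 on the DRG arrays, against 1635, 1704 and 1600.5 on the SC arrays. Every SC array was above every DRG array, a fold of 2.14 toward SC (log2 difference -1.08 ± 0.067 SE, limma adjusted p = 2.11e-06). Its second probe set differed by -1.46 in the same direction.

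Adcy8 was dim. Its only probe set gave 70.7, 69.9 and 86.3 on the DRG arrays, under the level of genes not expected, against 206, 199 and 226 on the SC arrays. The tissues did not overlap, and Adcy8 was at least 1.49-fold higher in SC (log2 difference -1.31, limma adjusted p = 0.000176). Adcy3, known from olfactory cilia, gave 435, 359.6 and 353 on the DRG arrays, against 515, 519 and 563 on the SC arrays (log2 difference -0.47, limma adjusted p = 0.00588). The Adcy3 arrays did not overlap either, and its other 3 probe sets ranged from -1.62 to -0.04.

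The other 7 adenylyl cyclases were not called on the deposited scaling, with differences between -0.20 and 0.14. Adcy9, an isoform found in many tissues, gave 684, 713 and 704 on the DRG arrays and 689, 709 and 657 on the SC arrays. These arrays overlapped, with a difference of 0.03 and a 95% interval from -0.13 to 0.19 (limma adjusted p = 0.80). The sign of Adcy9 turned with the scaling, to -0.41 under quantile normalization and -0.33 before the array scaling, both called. Adcy2, Adcy5 and Adcy6 were likewise called toward SC under those scalings, so the count of adenylyl cyclases higher in SC was 3 of 10 on the deposited scaling and 7 of 10 under either of the others, with 0 toward DRG under all 3. Adcy4 and Adcy10, the bicarbonate-activated soluble form, were at or under the level on every array.

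All 3 measured subunits of soluble guanylyl cyclase, the intracellular receptor of nitric oxide, were called higher in SC. This held in 6 of their 7 probe sets, against 9.78% of all probe sets and 13.7% of those above the median signal. Gucy1b1, the beta subunit that carries the haem, had signals of 156, 165 and 144 on the DRG arrays, against 612, 648 and 576 on the SC arrays. The lowest SC array was far above the highest DRG array, a fold of 3.96 toward SC (log2 difference -1.88 ± 0.0995 SE, limma adjusted p = 7.97e-07), with DRG above the level of genes not expected on 2 of 3 arrays. Its second probe set gave 75.1, 81.1 and 83.3 on the DRG arrays, against 845, 803 and 912 on the SC arrays, at least 6.04-fold higher in SC (limma adjusted p = 4.28e-08). The 2 probe sets thus differ in the size of the difference and share its direction.

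The alpha subunits pair with the beta subunit. Gucy1a2 gave 376, 290.2 and 313 on the DRG arrays, against 406, 506 and 524 on the SC arrays, without overlap (log2 difference -0.53, limma adjusted p = 0.0109). The brightest probe set of Gucy1a1 gave 155, 144 and 98.0 on the DRG arrays, against 319, 264 and 234 on the SC arrays, again without overlap. Its 3 probe sets differed by -0.97, -1.96 and -2.19, all called toward SC. In the RefSeq annotation of GRCm38.p6, Gucy1a1 and Gucy1b1 are neighbours on chromosome 3, with 0 genes between them. Gucy2c, Gucy2e and Gucy2g, membrane guanylyl cyclases known from gut, retina and olfactory tissue, were at or under the level on every array, and none of these 3 was called. Npr1 and Npr2 are membrane guanylyl cyclases too, but the symbol rule does not take them, and their values stand with the other genes of cyclic nucleotide signalling.

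**Figure D3:**
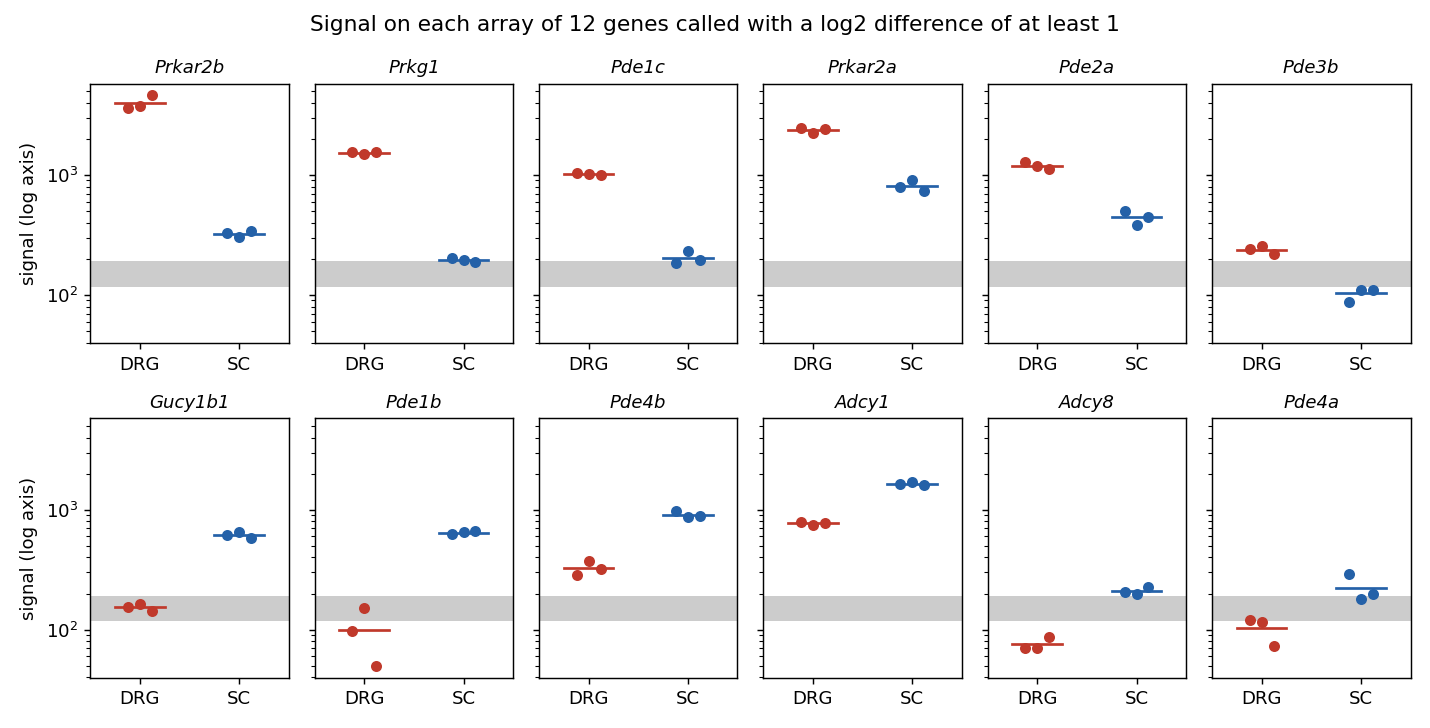
Signal on each array, on a log axis, for the 12 genes called with a log2 difference of at least 1 in size and over the level for genes not expected on each array of the brighter tissue. Points are arrays, lines the means and the grey band the range of the level over the 6 arrays, 118 to 192, with DRG left of SC for each gene. The 3 arrays of one tissue lie apart from those of the other in all 12 genes, widest for Prkar2b with 3611 to 4607 in DRG and 304 to 341 in SC.

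The phosphodiesterases differed by family member. Within the calcium- and calmodulin-activated Pde1 family, Pde1c was higher in DRG and Pde1b higher in SC. Pde1c gave 1036, 1011 and 994 on the DRG arrays, against 184, 233 and 196 on the SC arrays, a fold of 4.99 (log2 difference 2.23 ± 0.098 SE, limma adjusted p = 2.54e-07). Of its 6 probe sets 4 were called, all toward DRG. Pde1b gave 96.9, 150.3 and 49.9 on the DRG arrays, all at or under the level of genes not expected, against 627, 647 and 662 on the SC arrays. Pde1b was at least 4.57-fold higher in SC (log2 difference -2.62 ± 0.276 SE, limma adjusted p = 6.39e-05). Pde1a was at or under the level on every array.

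Pde2a, which hydrolyses both messengers and is stimulated by cGMP, was higher in DRG. Its brightest probe set, of a kind that can match several transcripts, gave 1289.7, 1181 and 1121 on the DRG arrays, against 504, 384 and 447 on the SC arrays. The arrays did not overlap, a fold of 2.70 (log2 difference 1.40 ± 0.106 SE, limma adjusted p = 7.26e-06). A second probe set differed by 1.59. Its remaining one did not follow, with 283, 179 and 192 on the DRG arrays, against 251, 205 and 294 on the SC arrays, which overlapped (difference -0.20, 95% interval -0.63 to 0.23). Before the array scaling it was called toward SC (-0.55, limma adjusted p = 0.0466).

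Pde3b, a cGMP-inhibited cAMP phosphodiesterase known from insulin signalling in fat and liver, gave 239.8, 258 and 218 on the DRG arrays, against 87.8, 111 and 111 on the SC arrays. It was at least 1.59-fold higher in DRG (log2 difference 1.10, limma adjusted p = 0.000344). The adipocyte markers moved with it: 2 of the 3 measured were called toward DRG, and their summed signal was 292 to 335 on the DRG arrays and 84.8 to 128 on the SC arrays, with 2 of the 3 at or under the level on every array. Their part in the Pde3b result was not tested. Pde6d gave 752, 767 and 758 on the DRG arrays, against 393, 377 and 390.2 on the SC arrays, a fold of 1.96 toward DRG (log2 difference 0.95, limma adjusted p = 8.06e-06). Despite its symbol, Pde6d encodes a carrier of prenylated proteins rather than a catalytic subunit.

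The cAMP-specific Pde4 family was called toward SC in 2 of its 3 measured members. Pde4b gave 287, 372 and 318 on the DRG arrays, against 979.7, 868 and 883 on the SC arrays, a fold of 2.81 toward SC (log2 difference -1.44 ± 0.105 SE, limma adjusted p = 5.77e-06). Of its 6 probe sets 3 were called, all toward SC. Pde4a gave 120.1, 116 and 72.5 on the DRG arrays, against 289, 181 and 199 on the SC arrays, at least 1.55-fold higher in SC (log2 difference -1.01, limma adjusted p = 0.00706). Both genes were without overlap between tissues.

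Pde4d, of the same family, was not called on the deposited scaling. It gave 571, 705 and 697 on the DRG arrays and 659.9, 636 and 670.3 on the SC arrays, which overlapped (95% interval of the log2 difference -0.21 to 0.21, limma adjusted p = 0.996). Under quantile normalization it was called toward SC (-0.42), as it was before the array scaling (-0.36).

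Pde8a and Pde9a, specific for cAMP and for cGMP in that order, were also called toward SC. Pde8a gave 267, 229 and 241 on the DRG arrays, against 513, 459 and 404 on the SC arrays, without overlap (log2 difference -0.86, limma adjusted p = 0.000293). Pde9a differed by -2.21 (limma adjusted p = 9.89e-05), but its signals were 16.1, 9.87 and 20.7 on the DRG arrays, against 117, 125 and 144 on the SC arrays, where only 1 array exceeded the level for genes not expected. No fold is given for Pde9a.

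The remaining 11 phosphodiesterases were not called. Pde7a, Pde7b, Pde8b and Pde10a were above the level on all 3 arrays of at least one tissue, with differences between 0.01 and 0.25. The catalytic subunits of the photoreceptor enzyme, Pde6a, Pde6b and Pde6c, were at or under the level on every array, as were Pde1a, Pde3a, Pde5a and Pde11a. Of 4 measured photoreceptor markers, 0 were called and all 4 were at or under the level. Single calls among secondary probe sets, toward DRG for Pde5a and Pde7a and toward SC for Pde10a, did not extend to the brightest probe set, and those of Pde5a and Pde7a ended before the array scaling (limma adjusted p = 0.132 and 0.285). Leaving out 1 array ended the Pde5a call in 4 cases (DRG replicates 2 and 3, SC replicates 1 and 2, limma adjusted p from 0.0743 to 0.102) and the Pde10a call in 2 (SC replicates 1 and 2, limma adjusted p = 0.0821 and 0.0579). Without DRG replicate 1, Pde11a was called toward DRG and Pde6a toward SC (limma adjusted p = 0.00285 and 0.0165).

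The regulatory subunits of protein kinase A were all called higher in DRG on the deposited scaling, 4 of 4 genes and 12 of 15 probe sets. Beside these stand 31.8% of all genes, 22.7% of all probe sets and 40.4% of probe sets above the median signal. Under quantile normalization the type II and not the type I genes were called at their brightest probe sets. The largest difference was that of Prkar2b, the type II beta subunit, which is known from neurons and fat. Its brightest probe set, of a kind that can match several transcripts, gave 3611, 3770.2 and 4607 on the DRG arrays, against 329, 304 and 341 on the SC arrays. The lowest DRG array was far above the highest SC array, a fold of 12.2 (log2 difference 3.55 ± 0.0996 SE, limma adjusted p = 2.17e-08). The other probe sets of Prkar2b differed by 2.80 and 2.87, so the brightest one gives the upper end. The probe set with 2.80 is the only one not of that kind.

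Prkar2a, the type II alpha subunit found in most tissues, gave 2471, 2253 and 2437 on the DRG arrays, against 794, 917 and 736 on the SC arrays. The tissues did not overlap, a fold of 2.94 (log2 difference 1.54 ± 0.090 SE, limma adjusted p = 1.50e-06), and 3 of its 4 probe sets were called toward DRG. Under quantile normalization Prkar2b and Prkar2a differed by 3.12 and 0.99, and before the array scaling by 3.19 and 1.17.

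The type I subunits had high signals in both tissues and smaller differences. Prkar1b, the neuronal type I beta subunit, gave 6763, 7162 and 7429 on the DRG arrays, against 4869, 4323 and 4859 on the SC arrays (log2 difference 0.60, limma adjusted p = 0.000303). Prkar1a, the widely expressed type I alpha subunit, gave 6003, 6325 and 6334 on the DRG arrays, against 3953, 3686 and 4056 on the SC arrays (log2 difference 0.67, limma adjusted p = 7.36e-05). Both were without overlap on the deposited scaling. After quantile normalization the differences were 0.06 and 0.13 and neither was called (limma adjusted p = 0.545 and 0.143). Before the array scaling they were 0.23 and 0.30, both called toward DRG (limma adjusted p = 0.0474 and 0.0103).

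One of the 5 probe sets of Prkar1b gave 1602, 1265 and 1221 on the DRG arrays and 1614, 1496 and 1276 on the SC arrays, which overlapped, and was not called. It was called toward SC under quantile normalization (-0.66, limma adjusted p = 0.00159) and before the array scaling (-0.47, limma adjusted p = 0.0109). Measured within arrays, the type II beta subunit stood apart from both type I subunits. The log2 signal of Prkar2b minus that of Prkar1a was -0.73, -0.75 and -0.46 on the DRG arrays, against -3.59, -3.60 and -3.57 on the SC arrays. The difference between tissues was 2.94, and it was 3.01 when Prkar1b took the place of Prkar1a. Such a value has a meaning only when compared between tissues, since probe sets differ in how brightly they report. These within-array values do not depend on the array scaling, and they were chosen after the data were seen and carry no test. The Prkar2b and Prkar1b probe sets used for them are of a kind that can match several transcripts.

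The catalytic subunits of protein kinase A showed small differences at their brightest probe sets on the deposited scaling. Prkaca gave 2661, 2621 and 2509 on the DRG arrays, against 2272, 2205 and 2174 on the SC arrays, a fold of 1.17 toward DRG (log2 difference 0.23, limma adjusted p = 0.0228). The Prkaca arrays did not overlap, but the sign turned both under quantile normalization (-0.37, limma adjusted p = 0.00159) and before the array scaling (-0.14, not called). The call of Prkaca also ended without DRG replicate 1, SC replicate 2 or SC replicate 3, with limma adjusted p = 0.0718, 0.0631 and 0.0720. Prkacb gave 2437, 2181 and 2295 on the DRG arrays, against 2825, 2589.6 and 2522 on the SC arrays (log2 difference -0.20, limma adjusted p = 0.0781). The size of the Prkacb difference depended on the scaling. It was called toward SC under quantile normalization (-0.79, limma adjusted p = 1.06e-05) and before the array scaling (-0.57, limma adjusted p = 0.000148).

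A second probe set of Prkacb differed more between tissues, with 348, 357 and 331 on the DRG arrays, against 1199, 1041 and 946 on the SC arrays. These did not overlap, a fold of 3.06 toward SC (log2 difference -1.57 ± 0.097 SE, limma adjusted p = 2.09e-06). The log2 difference between the first and the second probe set within an array was 2.81, 2.61 and 2.79 in DRG, against 1.24, 1.31 and 1.41 in SC, a shift of 1.42 that does not depend on the array scaling. Which transcripts either probe set matches is not given in the sources used here.

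Protein kinase G was represented by Prkg1 and Prkg2, the soluble and the membrane-bound form. Prkg1 gave 1564, 1494 and 1551 on the DRG arrays, against 203, 194 and 188 on the SC arrays. The arrays did not overlap, a fold of 7.87 toward DRG (log2 difference 2.88 ± 0.075 SE, limma adjusted p = 1.44e-08), with SC above the level of genes not expected on 2 of 3 arrays. Its second probe set differed by 2.97. Prkg2 was not called at its brightest probe set (difference 0.38, 95% interval 0.03 to 0.73 before adjustment, limma adjusted p = 0.0980). A second probe set of Prkg2 was called at 0.62, a call that ended without DRG replicate 1, SC replicate 2 or SC replicate 3 (limma adjusted p = 0.0666, 0.0579 and 0.0646) and before the array scaling (0.28, limma adjusted p = 0.226).

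Gucy1b1, of the soluble enzyme that makes cGMP, and Prkg1, a kinase that reads it, lay on opposite sides. Within each array, where the array scaling cancels, the log2 signal of Prkg1 minus that of Gucy1b1 was 3.33, 3.18 and 3.43 on the DRG arrays, against -1.59, -1.74 and -1.61 on the SC arrays, a difference of 4.96. This pair was chosen after its values were seen and has no test. Markers of vascular smooth muscle and pericytes, cells known to express both proteins, were called higher in DRG for 4 of 7 genes, with a summed signal of 4173 to 4404 on the DRG arrays and 2508 to 2585 on the SC arrays. Of these 7 markers 3 were at or under the level on every array. Their part in the Prkg1 and Gucy1b1 results was not tested.

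Promoter sequence is shown for genes from both ends of the comparison, Prkar2b and Prkg1 higher in DRG and Gucy1b1 higher in SC, and for Prkar1a, the only gene of the set with a full cAMP response element in any window. Each is the 150 bases before an annotated start, from RefSeq on GRCm38.p6, given on the gene's strand. Where a gene had several starts, the stretch with the most motif matches, a full element counting most, is shown, so the numbers of matches follow from that choice. Capitals mark GGGCGG (a GC box) and TGACG or TGACGTCA (a partial and a full cAMP response element), searched on both strands, where TGACG lies within TGACGTCA. Prkar2b lies at chr12:32061278-32061427 on the minus strand, Prkg1 at chr19:31765034-31765183 on the minus strand, Gucy1b1 at chr3:82074712-82074861 on the minus strand and Prkar1a at chr11:109650799-109650948 on the plus strand.
Prkar2b: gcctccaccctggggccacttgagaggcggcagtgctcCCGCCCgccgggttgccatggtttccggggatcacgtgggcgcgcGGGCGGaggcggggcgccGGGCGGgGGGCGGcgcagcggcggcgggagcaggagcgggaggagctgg
Prkg1: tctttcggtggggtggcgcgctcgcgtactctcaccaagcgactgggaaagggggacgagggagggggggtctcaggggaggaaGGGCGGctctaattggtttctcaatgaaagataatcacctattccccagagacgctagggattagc
Gucy1b1: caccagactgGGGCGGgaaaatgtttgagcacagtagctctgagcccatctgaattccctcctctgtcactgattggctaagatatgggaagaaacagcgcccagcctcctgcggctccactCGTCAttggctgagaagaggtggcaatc
Prkar1a: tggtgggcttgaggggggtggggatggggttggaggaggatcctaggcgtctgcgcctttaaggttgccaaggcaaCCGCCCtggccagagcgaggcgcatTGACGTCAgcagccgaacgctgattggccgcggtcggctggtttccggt
The stretch of Prkar2b holds GGGCGG 4 times, and those of Prkg1, Gucy1b1 and Prkar1a hold it once each. TGACGTCA occurs in Prkar1a, and TGACG occurs in Gucy1b1 on the opposite strand. The same stretch before the other start of Prkar2b and of Prkg1 holds none of the 3 motifs. Of the 6 starts of Prkar1a, 1 has TGACGTCA in its stretch.

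Promoter windows, 250 bases before to 50 after a start, were given for 35 of the 45 genes, 75 windows in all, and some windows of one gene overlap. TGACGTCA was in 2 of the 75, both of Prkar1a, against 1.79% of all 32851 windows. TGACG was in 18 windows (24.0%) and GGGCGG in 33 (44.0%), against 20.8% and 35.7% of all windows. Genes called toward either tissue were among those with TGACG and with GGGCGG, such as Prkar2a and Gucy1b1 for TGACG, and Prkg1 and Adcy1 for GGGCGG. A match is a description of these letters and not a site of binding.

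Other genes of cyclic nucleotide signalling, which the symbol rule does not take, were called in both directions. Of 52 measured genes of a list of 55, 19 were called higher in DRG and 4 higher in SC, with a median difference of 0.22, beside 31.8% and 9.69% and a median of 0.18 for all genes. These shares lie near those of all genes. The counts were 14 and 6 under quantile normalization, and 13 and 9 before the array scaling. Anchoring proteins hold protein kinase A at membranes and organelles. By their brightest probe sets on the deposited scaling, 6 of 13 were called toward DRG and 0 toward SC. These counts were 4 and 1 under quantile normalization, and 4 and 2 before the array scaling. Over all probe sets on the deposited scaling, Akap6 had 1 called toward each tissue, and Akap2, Akap5 and Akap8 each had 1 called toward SC. The DRG calls of Akap4, Akap10 and Akap13 came from 1 of 3, 1 of 4 and 1 of 7 probe sets. The 3 genes of the protein kinase A inhibitors Pkia, Pkib and Pkig were all called toward DRG, with differences of 0.63, 2.04 and 0.85. Under quantile normalization Pkia lost its call (0.13, limma adjusted p = 0.262).

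Akap12, an anchoring protein also called gravin, gave 6366, 6165 and 6003 on the DRG arrays, against 888, 959 and 912 on the SC arrays, a fold of 6.72 (log2 difference 2.73, limma adjusted p = 1.09e-08). Popdc3, of a family of membrane proteins that bind cAMP, gave 724, 729 and 746 on the DRG arrays, against 77.9, 112 and 95.4 on the SC arrays, at least 4.89-fold higher in DRG (limma adjusted p = 3.29e-07). Nppb, the natriuretic peptide B gene expressed in itch-related sensory neurons of the mouse, gave 667, 689 and 585 on the DRG arrays, against 82.4, 75.4 and 89.0 on the SC arrays, at least 4.31-fold higher in DRG (limma adjusted p = 2.06e-07). None of these 3 genes overlapped between tissues.

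Toward SC, Ppp1r1b, a phosphatase inhibitor that is a kinase substrate in both pathways, gave 54.1, 72.4 and 103 on the DRG arrays, against 391, 441 and 403 on the SC arrays. It was at least 2.92-fold higher in SC (log2 difference -2.24, limma adjusted p = 1.59e-05). Rapgef3, a cAMP-activated exchange factor, gave 171, 153 and 119.8 on the DRG arrays, against 189, 239.6 and 216 on the SC arrays (log2 difference -0.50, limma adjusted p = 0.0415). Its call ended without DRG replicate 2 or 3 and without SC replicate 2 or 3, with limma adjusted p from 0.0636 to 0.155. All 5 of its probe sets were called toward SC, and the difference was -1.26 for their mean (limma adjusted p = 0.000508) and -2.22 for the brightest one left when those that can match several transcripts were set aside (limma adjusted p = 0.000636). The 5 cyclic nucleotide-gated channel genes measured were at or under the level of genes not expected on every array, Cnga2 with a call toward SC (-1.06) among them.

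**Figure D4:**
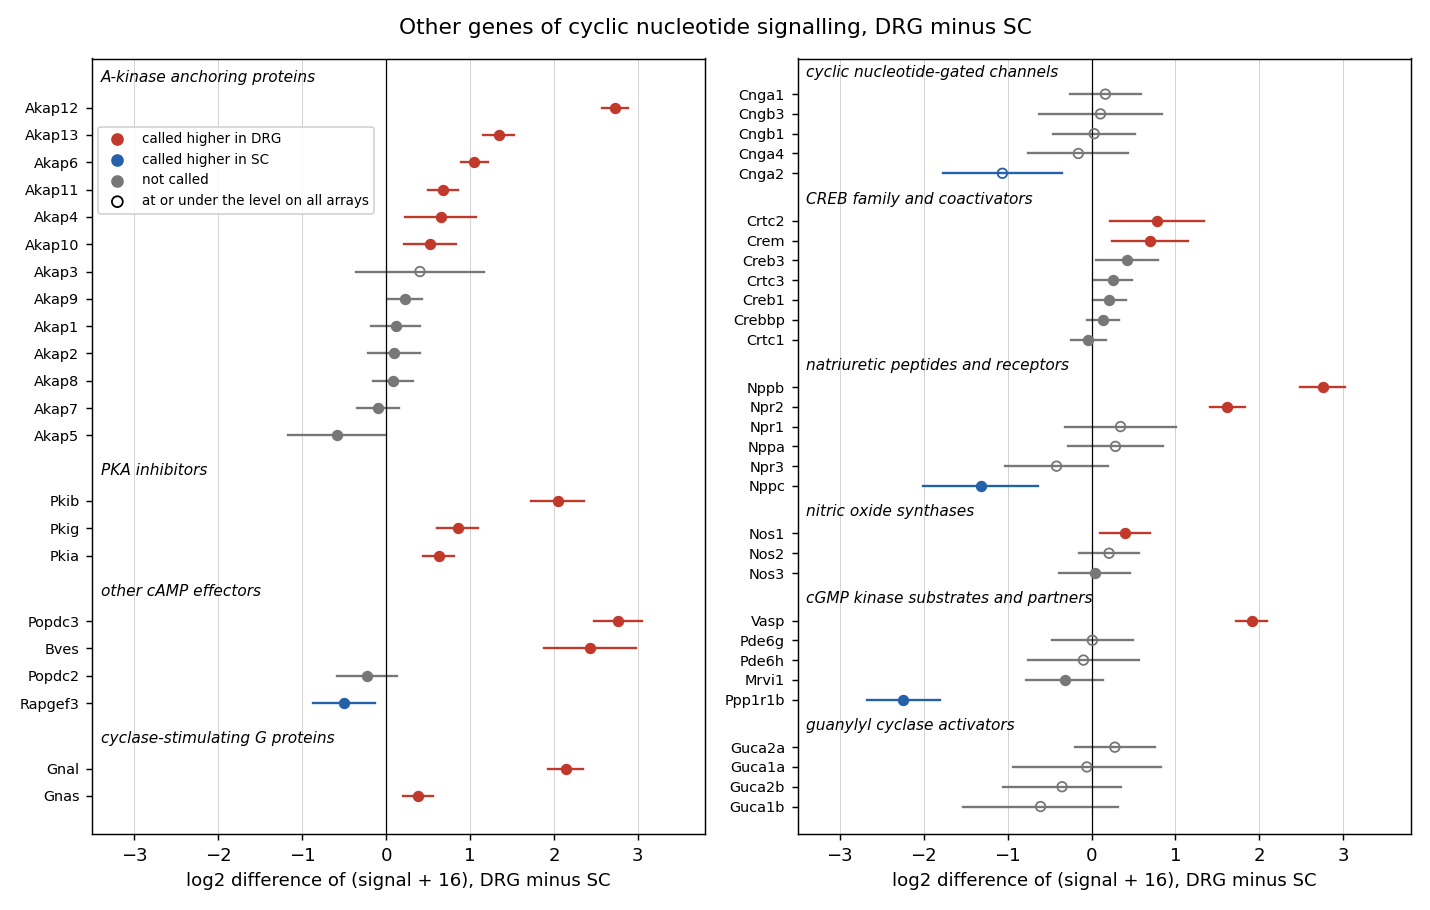
Log2 difference of (signal + 16), DRG minus SC, with 95% intervals, for 52 other genes of cyclic nucleotide signalling by class. Colours give the limma call and open circles mark genes at or under the level of genes not expected on all 6 arrays. Akap12, Popdc3 and Nppb lie farthest to the right, at 2.73, 2.76 and 2.75, and Ppp1r1b farthest to the left, at -2.24.

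Around the guanylyl cyclases, the membrane receptor and the peptides were measured beside the soluble enzyme. Npr2, the receptor of natriuretic peptide C and itself a membrane guanylyl cyclase, was higher in DRG, with 1466, 1294 and 1486 on the DRG arrays, against 405, 475 and 471 on the SC arrays (fold 3.14, limma adjusted p = 1.13e-06). Npr1, the other such receptor, was at or under the level on every array and was not called. Nppc, which encodes that peptide, was called toward SC (difference -1.32, limma adjusted p = 0.00805) with DRG at or under the level on every array. Npr1, Npr2 and Nppc, like Gnal, Gnas and Vasp, were named after their values were seen. Of the G proteins that stimulate adenylyl cyclase, Gnal gave 3588, 3409.7 and 3404 on the DRG arrays, against 801, 857 and 674 on the SC arrays, a fold of 4.48, and Gnas differed by 0.38. The direction of Gnas depended on the scaling, with -0.09 under quantile normalization and 0.01 before the array scaling, neither called, and 1 of its 5 probe sets was called toward SC on the deposited one. Vasp, a substrate of both kinases that binds actin, was 3.93-fold higher in DRG (limma adjusted p = 2.27e-07).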

How the data were processed

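Gene expression was measured on 6 biotin-labelled 3' arrays, 3 of DRG and 3 of SC, grouped by the labels. Per the submitters' processing notes, MAS5 (version not given) made the signals. The deposited values are ratios of a probe set's signal to its median over the arrays, as read from the values, since the sources used here do not describe the steps between. Signals were recovered from the deposited ratios by taking the smallest multiplier that put the values of a probe set on whole steps of 0.1, the step assumed for MAS5. This worked for 45091 of 45101 probe sets. On 45058 simulated probe sets 98.5% were recovered exactly and the other 1.49% up to a factor common to the 6 arrays, which leaves differences nearly unchanged. The deposited array scaling was kept, and signals are given on it.

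Genes were named through the platform annotation, with all 45 matched to RefSeq. The 64 control probe sets were left out. Differences of log2(signal + 16), a scale that understates those of dim genes, were tested with limma 3.58.1 in R 4.3.3 (lmFit, eBayes with intensity trend, two-sided, Benjamini-Hochberg over 45027 probe sets). Other steps used pandas 2.3.3, numpy 2.4.6, numba 0.67.0, scipy 1.17.1 and matplotlib 3.10.9 under Python 3.11.15. The number of arrays limits the precision. The level is the 95th percentile of 53 probe sets of 37 genes not expected in either tissue. The members and gene lists were chosen with earlier results of these data known. Values on each array were planned for members called with a log2 difference of at least 1 in size. These had to be above the level in the brighter tissue. Values were also planned for the 2 brightest genes of each role and for up to 3 pathway genes in each direction. Prkaca, Prkacb, Pde6d, Pde8a, Pde9a, Adcy3, Gucy1a1, Prkg2 and second probe sets were added after seeing their values. Alternatives were other pseudocounts, scalings, filters, gene summaries and trends, a replicate block and leaving out each array.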

Additional observations from a re-analysis of the deposited data

How the results depend on the processing

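Of 22 named genes, 16 kept direction and side of the threshold under every alternative that measured them. Among these, Akap12 and Pde4a were not measured when probe sets that can match several transcripts were left out, as their only probe set is of that kind. Member probe sets higher in SC numbered 37 before the array scaling and 32 after quantile normalization, against 21. Member genes higher in SC numbered 18 and 18, against 11. Member probe sets higher in DRG fell to 17, against 27, when probe sets that can match several transcripts were left out, since fewer are tested. Pathway genes higher in SC numbered 9 before the array scaling, 8 when probe sets of a gene were averaged and 2 above the level of genes not expected, against 4. The cause was not tested. The difference of Adcy9 turned to -0.41 (quantile), -0.33 (before the array scaling) and -0.0508 (mean of probe sets), and that of Pde4d to 0.10 without DRG replicate 1, 0.0042 without SC replicate 1 and 0.02 without SC replicate 3. It ranged from -0.0529 to 0.10 over the single arrays left out. Leaving out 1 array gave 23 to 27 member probe sets toward DRG and 20 to 22 toward SC, 9 to 10 and 11 to 12 member genes, and 15 to 18 and 2 to 3 pathway genes, with 2 toward SC without DRG replicate 2 or SC replicate 3. Gucy1a2 lost its call on the deposited ratio (-0.55, limma adjusted p = 0.0662, fitted without intensity trend) and with the mean of probe sets (-0.30, limma adjusted p = 0.303).

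DRG and SC arrays share replicate numbers, but deviations of same-numbered arrays correlated at -0.0099, -0.0209 and 0.0034, so the numbers were not taken as pairs. With the replicate number as a block, 26 member probe sets were called toward DRG and 21 toward SC, 10 and 11 member genes, and 17 and 3 pathway genes. Rapgef3 lost its call there (limma adjusted p = 0.0634). Signals near the level of genes not expected limit the dim genes.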
